A study of Rattus norvegicus with 10 samples.

Results

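At 34 days of treatment, small RNA libraries from the subcutaneous tissue of rats with collagen-induced arthritis (CIA) that received mechanical stimulation (MS_A) were compared with libraries from rats that received placebo (PLA_A). The comparison uses 4 of the 10 libraries of the series, 2 in each arm, and 359 of the 723 mature miRNAs in the files, those that reached 1 cpm (reads scaled to a library of 1000000) in 5 or more of the 10 libraries. All 7 miRNAs that passed the thresholds of the study are named, among them the leukocyte miRNAs miR-142-5p, miR-142-3p, miR-150-3p, miR-342-3p and miR-342-5p, and miR-363-3p, which were lower in MS_A, and miR-495, which was higher. For each of the 6 lower miRNAs the highest of the 4 libraries was PLA_A replicate 1, and without that library none of them passed.

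All animals were female Wistar rats with arthritis induced by bovine type II collagen in adjuvant. In MS_A a short steel needle was inserted and twirled at points of the lower back and below the knee. The labels call this arm AP. In PLA_A sterile saline was injected into the peritoneum, so this arm was not punctured at the stimulated points. Ether was the anaesthetic in both arms and every animal was shaved. The remaining groups of the series are CIA_B (before therapy), MS_E and PLA_E (1 h after stimulation and after placebo), with 2 libraries each, and these 6 libraries enter the filter, the shared estimate of spread and the comparison with 1 h. The age of the rats is not given in the sources used here. The labels call the tissue muscle below the epidermis, the methods describe tissue excised under the skin around the stimulated points, subcutaneous muscle included, and the design text of the series also mentions blood. Nothing states that each library came from a separate animal, so the p-values measure the spread between these libraries, which may be technical in part.

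A miRNA is an RNA of about the length of the sequences shown here, which is cut from a hairpin and guides the Argonaute protein to messenger RNAs that pair with its seed, bases 2 to 8. The hairpin can give a miRNA from each arm, named 5p and 3p, and many miRNAs are so restricted to a cell lineage that their level in a tissue follows its cell content. miR-142 is made in all blood lineages, miR-150 is abundant in mature lymphocytes, and miR-1, miR-133 and miR-206 are made in striated muscle. In bulk tissue, fewer cells of a type and less RNA per cell cannot be told apart.

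The sequences of the miRNAs on which the comparison turns are shown first, from RefSeq annotation of the GRCr8 build, with the seed in capitals. Of the 359 tested miRNAs, 324 matched an entry by name. miR-142-5p and miR-142-3p come from the same hairpin, as do miR-342-5p and miR-342-3p, so each pair shares 1 transcript but not a seed.
miR-142-5p: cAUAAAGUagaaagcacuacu
miR-142-3p: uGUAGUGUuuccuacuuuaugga
miR-342-5p: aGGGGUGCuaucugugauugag
miR-342-3p: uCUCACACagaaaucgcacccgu
miR-495: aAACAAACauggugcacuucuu
miR-33-5p: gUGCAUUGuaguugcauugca
miR-375-3p: uUUGUUCGuucggcucgcguga
miR-142-5p is at chr10:73055119-73055139 and miR-142-3p at chr10:73055155-73055177, both on the plus strand and inside the span of Tspoap1. miR-342-3p is at chr6:133329715-133329737 on the plus strand, inside the span of Evl. miR-495 is at chr6:134554103-134554124 on the plus strand, inside the span of a long noncoding RNA gene. miR-33-5p, at chr7:115593957-115593977 on the plus strand, lies inside the span of Srebf2, the gene of a regulator of sterol synthesis.

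miR-363-3p was the only other member of the lower group with an entry, and it shares its seed with miR-32-5p, miR-92a-3p, miR-92b-3p and miR-25-3p, which are shown to let the reader see that the bases after the seed differ.
miR-363-3p: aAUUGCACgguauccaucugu
miR-32-5p: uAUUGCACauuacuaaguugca
miR-92a-3p: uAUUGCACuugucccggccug
miR-92b-3p: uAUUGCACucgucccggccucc
miR-25-3p: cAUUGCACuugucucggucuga
miR-363-3p is at chrX:137342788-137342808 on the minus strand and miR-32-5p at chr5:76391328-76391349 on the minus strand, inside the span of Tmem245. Reads of these related sequences were assigned by the counting of the authors, which could count a read for more than 1 related miRNA. let-7a-1-3p and let-7c-2-3p each had 274 reads in MS_A replicate 1 and 204 and 331 in PLA_A. In MS_A replicate 2 they had 314 and 313. For miR-92a-3p and its relatives this was not tested.

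The 4 libraries held 6244356 and 7067292 miRNA reads in MS_A and 3050255 and 5723107 in PLA_A, so that 3 reads were worth 0.366 to 0.747 cpm after scaling with TMM factors, which adjust each library for its composition. The muscle miRNAs were present in all 4 libraries, with miR-133a-3p at 122982 and 128713 cpm in MS_A and 89171 and 139360 cpm in PLA_A. The replicates of each arm stood apart in miR-1-3p and miR-206-3p. miR-1-3p was at 12058 and 122962 cpm in MS_A and at 80400 and 15564 cpm in PLA_A, and miR-206-3p, which is restricted to skeletal muscle, was at 1531 and 12031 cpm in MS_A and 14649 and 1143 cpm in PLA_A. MS_A replicate 2 and PLA_A replicate 1 were thus the libraries with more of miR-1-3p and miR-206-3p. miR-133b-3p differed less, at 3112 and 4771 cpm in MS_A and 4643 and 3898 cpm in PLA_A. miR-133a-5p was lower in those libraries, at 686 and 450 cpm in MS_A and 394 and 721 cpm in PLA_A. Values are also given within the pairs of libraries that were alike in miR-1-3p. The pairs are MS_A replicate 2 with PLA_A replicate 1 and MS_A replicate 1 with PLA_A replicate 2. The reads of replicates differed by far more than sampling noise, so no library was counted as a duplicate.

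Of the 359 miRNAs, 7 (1.95%) changed more than 2-fold with an unadjusted p under 0.05, the thresholds of the study, by the edgeR quasi-likelihood test fitted to all 10 libraries, 6 (1.67%) lower in MS_A and 1 (0.279%) higher. None (0%) had an adjusted p under 0.05 over all 359, where the smallest edgeR adjusted p was 0.999, and 7 had an unadjusted p under 0.05. With DESeq2, 2 (0.557%) had an adjusted p under 0.05, which were miR-142-5p (adjusted p = 0.0106) and miR-142-3p (adjusted p = 0.0426), and with limma-voom none had. The DESeq2 count was 0 without MS_A replicate 1, without MS_A replicate 2 and without PLA_A replicate 1, and 4 without PLA_A replicate 2. The distribution of the differences was centred near 0, with a median log2 fold change of -0.02 over the 359, 170 (47.4%) above 0 and 189 (52.6%) below. Scaling by library size alone, without TMM factors, moved the differences by a median of -0.30, and the differences below are on the TMM scale. Both PLA_A libraries lay above both MS_A libraries for 45 miRNAs (12.5%), and the reverse was true of 27 (7.52%). Of those 45, PLA_A replicate 1 was the highest library for 29 and PLA_A replicate 2 for 16.

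**Figure D1:**
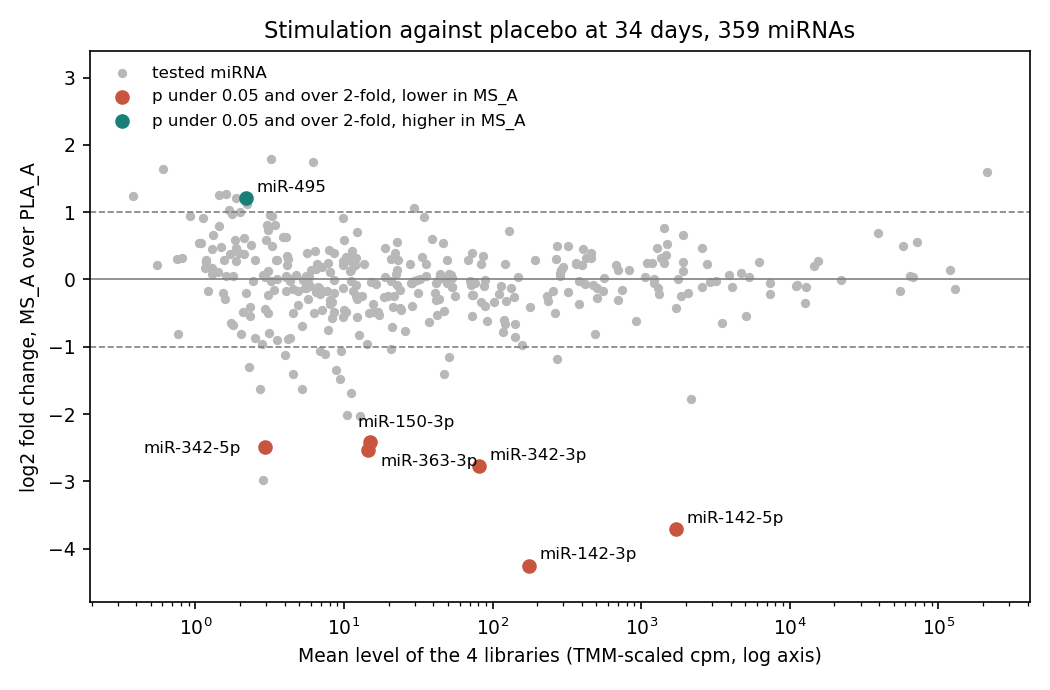
Each point is 1 of the 359 tested miRNAs, with its mean level in the 4 libraries (TMM-scaled cpm, log axis) against the fitted log2 fold change of MS_A over PLA_A; dashed lines mark 2-fold. The 6 red points that passed and were lower in MS_A lie between -4.25 and -2.42, far below the bulk of miRNAs, and the green point, miR-495, lies at 1.21 among other miRNAs of low level.

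Of the lymphoid and pan-leukocyte miRNAs, all 5 tested members were below 0, 4 of which passed, beside 1.67% that passed and were lower over all tested. The median log2 fold change was -2.77, beside -0.02 over all tested, and -0.74 without PLA_A replicate 1. miR-155-5p was not analysed here. miR-142-5p, the more abundant arm of its hairpin, was at 263 and 226 cpm in MS_A and at 5854 and 551 cpm in PLA_A. The MS_A libraries were close to each other and below both PLA_A libraries, which themselves were more than 10-fold apart. The means were 244 ± 26.2 cpm in MS_A and 3202 ± 3750 cpm in PLA_A (SD, n = 2 each). The fitted log2 fold change was -3.71 with a standard error of 0.95 and a 95% interval of -5.86 to -1.57 (edgeR adjusted p = 0.999), where standard errors and intervals here and below belong to the fit without the small prior count that is added for the fold change.

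miR-142-3p, from the opposite arm of the hairpin, was at 11.4 and 22.8 cpm in MS_A and at 636 and 30.8 cpm in PLA_A, again with no overlap and with PLA_A replicate 1 far above the other libraries. Its log2 fold change was -4.25 with a standard error of 1.40 and an interval of -7.43 to -1.13. miR-150-3p was at 4.27 and 4.63 cpm in MS_A and at 45.8 and 5.10 cpm in PLA_A, a log2 fold change of -2.42 with a standard error of 0.93 and an interval of -4.61 to -0.41. For this miRNA PLA_A replicate 2 was barely above the MS_A libraries. miR-150-5p, the abundant arm of the same hairpin and a repressor of Myb in lymphocytes, did not pass: it was at 473 and 1488 cpm in MS_A and at 6220 and 527 cpm in PLA_A, so that the arms overlapped, with a log2 fold change of -1.78 and an interval of -4.38 to 0.81.

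miR-342-3p and miR-342-5p, from a hairpin within Evl that is active in lymphocytes, differed in whether the arms overlapped. miR-342-3p was at 13.0 and 27.8 cpm in MS_A and at 275 and 9.11 cpm in PLA_A, where replicate 2 was below both MS_A libraries, and its log2 fold change was -2.77 with a standard error of 1.22 and an interval of -5.54 to -0.04. miR-342-5p was at 0.474 and 0.731 cpm in MS_A and at 9.21 and 1.28 cpm in PLA_A, on 2 and 6 reads against 37 and 7, with a log2 fold change of -2.49 and an interval of -5.74 to -0.37. Only the reads of PLA_A replicate 1 lift this miRNA well above the level of a few reads.

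**Figure D2:**
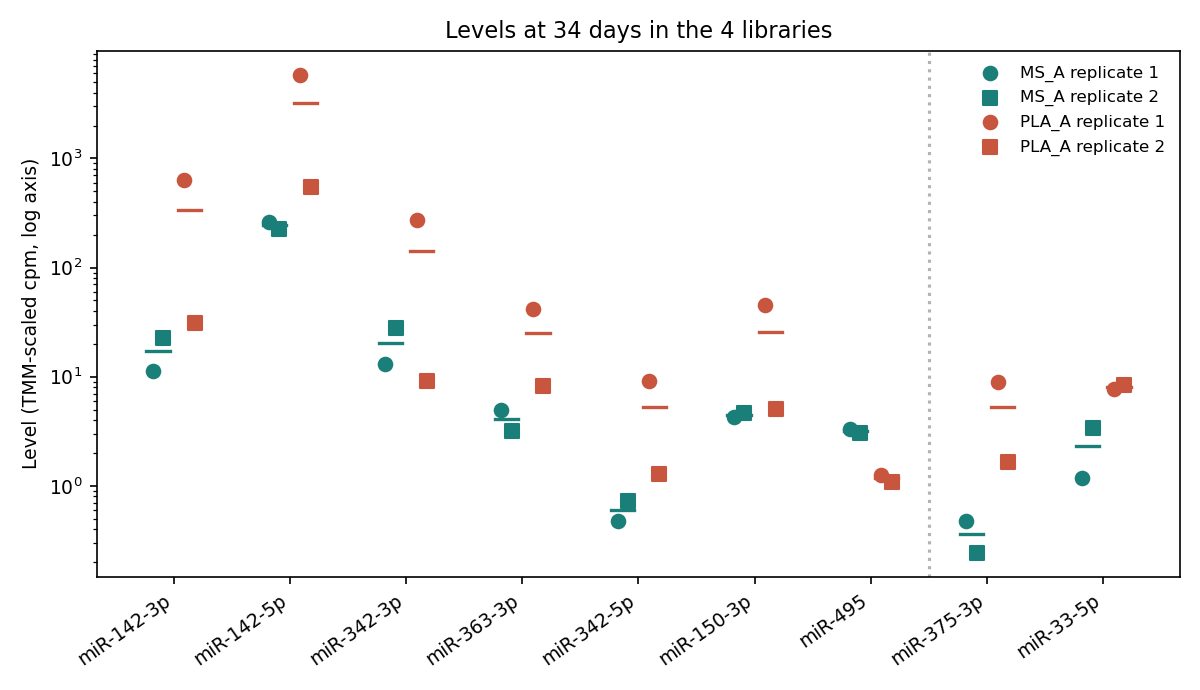
Level (TMM-scaled cpm, log axis) in each of the 4 libraries for the 7 miRNAs that passed and, right of the dotted line, miR-375-3p and miR-33-5p; bars mark the mean of the 2 libraries of an arm. PLA_A replicate 1 (red circle) is the highest library for the first 6 miRNAs, from 9.21 cpm for miR-342-5p to 5854 cpm for miR-142-5p, while the arms of miR-495 and miR-33-5p are separated with the PLA_A libraries close together.

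The summed level of the 5 tested lymphoid miRNAs was 761 and 1765 cpm in MS_A and 12994 and 1118 cpm in PLA_A. In the 6 libraries of the other groups it was between 577 and 1748 cpm, so PLA_A replicate 1 was above the 9 other libraries of the series and PLA_A replicate 2 was within their range. The myeloid and inflammation-induced miRNAs did not follow: their summed level was 10595 and 4967 cpm in MS_A and 8642 and 9304 cpm in PLA_A. Nor did the erythroid miRNAs, at 42.2 and 58.9 cpm in MS_A and 42.6 and 67.4 cpm in PLA_A. The slow-twitch fibre miRNAs were also highest in PLA_A replicate 1, with sums of 403 and 139 cpm in MS_A and 1025 and 142 cpm in PLA_A, as were the cartilage miRNAs, with 549 cpm there and 363 cpm in PLA_A replicate 2, above the 321 cpm of MS_A replicate 2 and below MS_A replicate 1. Whether the cell content of PLA_A replicate 1 set these differences was not tested.

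**Figure D3:**
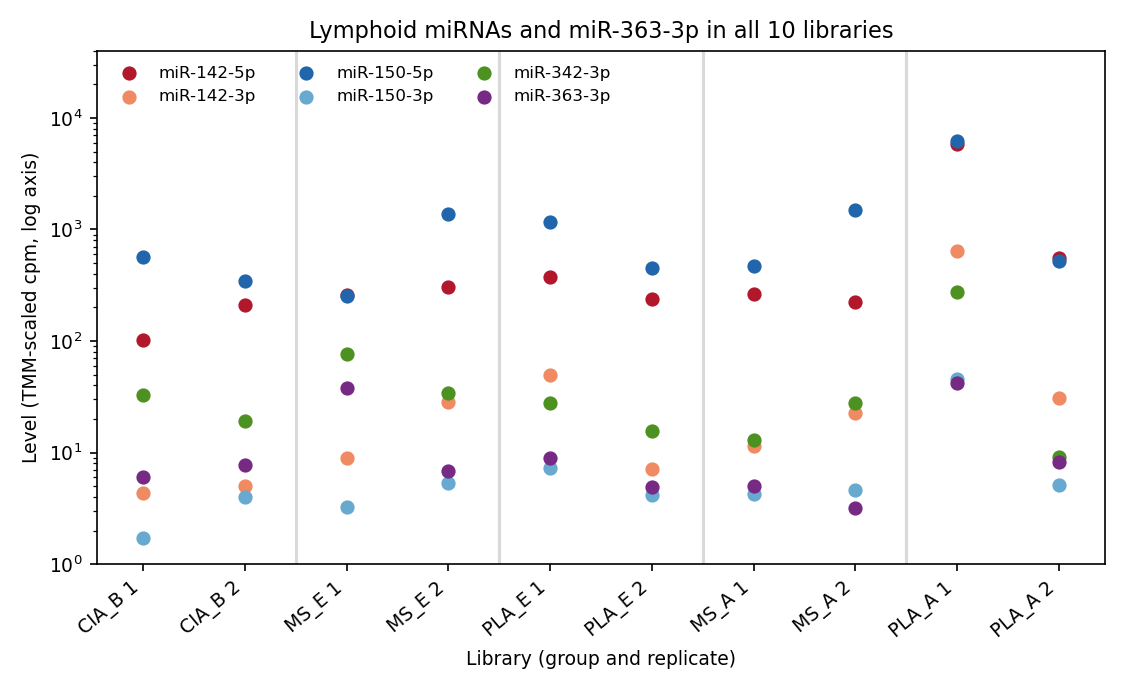
Level (TMM-scaled cpm, log axis) of 5 leukocyte miRNAs and miR-363-3p in the 10 libraries of the series, by group and replicate. In PLA_A replicate 1 all of them are high, with miR-142-3p at 636 cpm, whereas in PLA_A replicate 2 they are near the other groups, and miR-363-3p alone is nearly as high in an early library, MS_E replicate 1, at 38.3 cpm.

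Leaving out PLA_A replicate 1 changed every one of these calls. The log2 fold change of miR-142-5p was then -1.18, that of miR-142-3p -0.83, that of miR-150-3p -0.18 and that of miR-342-5p -0.74. miR-342-3p turned to 1.14 and miR-150-5p to 0.90, higher in MS_A. In that fit 2 miRNAs passed, none of which were among the 7, and the median of the lymphoid list was -0.74, with 2 of its 5 members above 0. With each of the other 3 libraries left out instead, the log2 fold change of miR-142-5p stayed between -4.49 and -3.58. Within the pairs of libraries alike in miR-1-3p, miR-142-5p was 25.9-fold higher in PLA_A replicate 1 than in MS_A replicate 2, and 2.10-fold higher in PLA_A replicate 2 than in MS_A replicate 1. For miR-142-3p the ratios were 27.9-fold and 2.71-fold, in the same order, and for miR-150-5p 4.18-fold and 1.11-fold. Since both miR-142 arms were without overlap, any pairing shows them higher in placebo, and only the sizes of the ratios add to the values above.

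**Figure D4:**
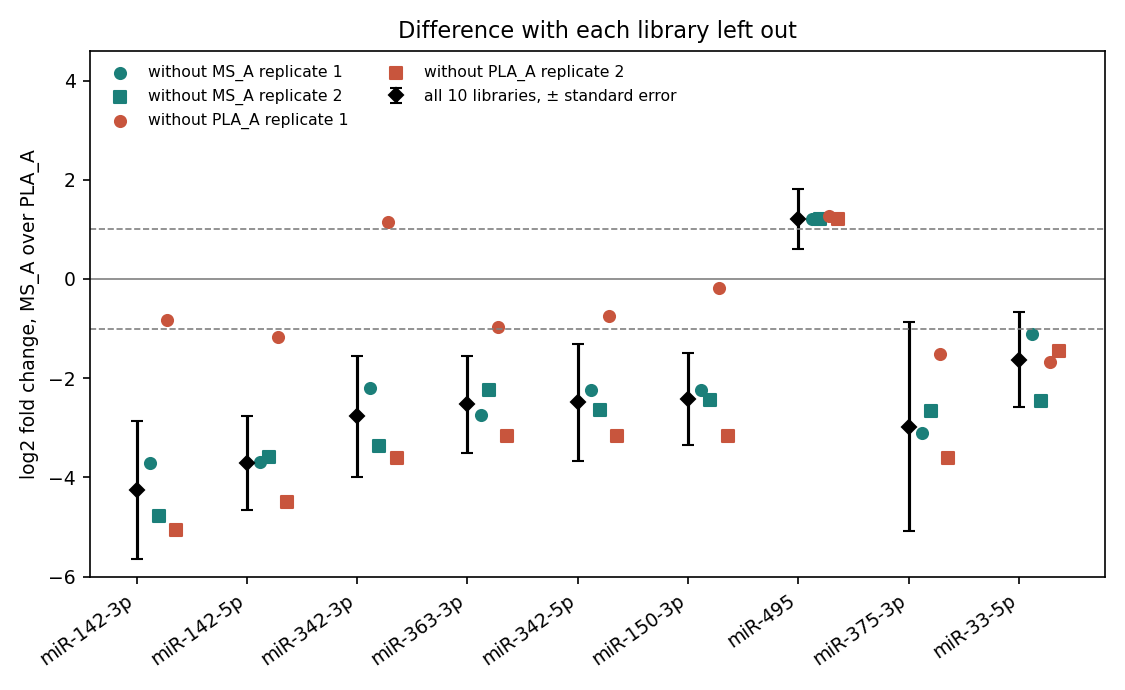
Fitted log2 fold change of MS_A over PLA_A for 9 miRNAs with all 10 libraries (black diamonds, ± standard error of the fit without the prior count) and with each 34-day library left out (coloured points); dashed lines mark 2-fold. Without PLA_A replicate 1 (red circles) the 6 lower miRNAs move toward 0 and miR-342-3p turns to 1.14, whereas miR-495 stays between 1.20 and 1.28; the fitted value of miR-375-3p, with 2 reads in each MS_A library, depends on the prior count.

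miR-363-3p, encoded on the X chromosome in a paralog of the miR-17/92 cluster, was at 4.98 and 3.17 cpm in MS_A and at 42.1 and 8.20 cpm in PLA_A, without overlap. Its log2 fold change was -2.53 with a standard error of 0.98 and an interval of -4.84 to -0.43, and -0.97 without PLA_A replicate 1, when it no longer passed. The opposite arm, miR-363-5p, had 0 reads in all 4 libraries, which allows up to 0.747 cpm in the shallowest of them, a limit that covers counting error only. miR-32-5p, with the same seed, was at 2.13 and 2.44 cpm in MS_A and at 8.72 and 4.74 cpm in PLA_A, a log2 fold change of -1.41 with a standard error of 0.71 and an interval of -3.15 to 0.06, and did not pass. The more abundant miR-92a-3p was at 839 and 619 cpm in MS_A and at 1269 and 976 cpm in PLA_A, a log2 fold change of -0.62 with a standard error of 0.56. For miR-92b-3p and miR-25-3p the log2 fold changes were -1.48 and -0.15, and the arms overlapped. The 5 miRNAs of this seed were chosen because miR-363-3p had passed, so their shared sign is a description only.

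The miR-17/92 cluster and its paralogs are miRNAs of proliferating cells, known from their amplification in B cell lymphoma. All 10 tested members had a log2 fold change below 0, with a median of -0.58, beside 52.6% below 0 over all tested, and 1 of 10, miR-363-3p, passed, beside 1.67% that passed and were lower over all tested. In 7 of the 10 both PLA_A libraries were above both MS_A libraries, beside 12.5% over all tested. miR-93-5p was at 227 and 208 cpm in MS_A and 343 and 274 cpm in PLA_A, and miR-19b-3p was at 73.8 and 43.6 cpm in MS_A and 87.2 and 84.4 cpm in PLA_A. The log2 fold changes were -0.50 for miR-93-5p and -0.55 for miR-19b-3p, each within 2 standard errors of 0. The gap between the arms was thus small for each of these abundant members. Under library-size scaling, DESeq2 size factors, the replicate block and each library left out, the median of the list stayed between -0.90 and -0.39. In these settings 0 to 2 of the 10 were above 0. The -0.90 came from library-size scaling, where the median of all tested was -0.34 with 90 of 359 above 0. In the other settings the median of all tested was -0.13 to 0.05, with 155 to 197 above 0.

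miR-495 was the only miRNA that passed in the other direction. It belongs to the large imprinted miRNA cluster of the Dlk1-Dio3 region, which is expressed from the maternal chromosome. Its level was low and even within each arm, at 3.32 and 3.05 cpm in MS_A and at 1.25 and 1.09 cpm in PLA_A, on 14 and 25 reads against 5 and 6. The means were 3.18 ± 0.194 cpm and 1.17 ± 0.107 cpm (SD, n = 2 each), and the log2 fold change was 1.21 with a standard error of 0.61 and an interval of 0.07 to 2.82. With each of the 4 libraries left out its log2 fold change stayed between 1.20 and 1.28, yet the call was lost each time, when 1 arm had a lone library.

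Of the 54 tested miRNAs of the Dlk1-Dio3 cluster, 45 had a log2 fold change above 0, beside 47.4% over all tested, and the median was 0.39. miR-495 was the only 1 of the 54 that passed, beside 1.95% in either direction over all tested. In 9 of the 54 both MS_A libraries were above both PLA_A libraries, beside 7.52% over all tested, and the reverse was true of 1, miR-136-3p, beside 12.5%. miR-127-3p, the most abundant, was at 1523 and 1451 cpm in MS_A and at 737 and 1406 cpm in PLA_A, with a log2 fold change of 0.47. PLA_A replicate 1 was the low library here. miR-411-5p was at 415 and 604 cpm in MS_A and 309 and 506 cpm in PLA_A, miR-434-3p at 202 and 661 cpm in MS_A and 505 and 241 cpm in PLA_A, and miR-541-5p at 128 and 191 cpm in MS_A and 91.9 and 101 cpm in PLA_A. Their log2 fold changes were 0.32, 0.21 and 0.72. The direction of the list rested on MS_A replicate 2: without it the median was -0.16 and 20 of 54 were above 0, beside 155 of 359, while without any 1 of the other 3 libraries it was 0.48 to 0.68 with 38 to 46 above 0. Under scaling by library size alone it was 0.19, with 38 above 0, beside 90 of 359. Within the pairs alike in miR-1-3p the median log2 ratio was 0.78 in the pair with more and -0.12 in the pair with less of it, over the 49 members with reads in all 4 libraries, 17 of which were higher in MS_A in both pairs, beside 74 of the 353 miRNAs with reads in all 4 libraries.

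**Figure D5:**
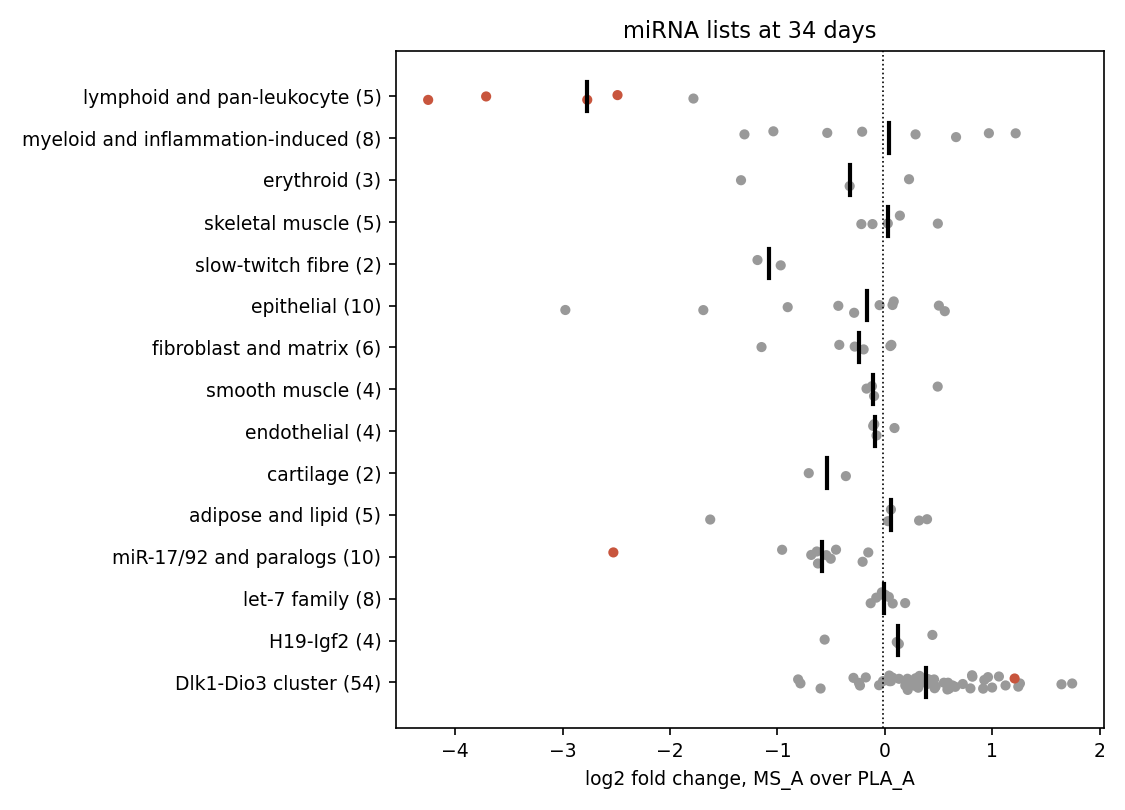
Fitted log2 fold change of MS_A over PLA_A for the tested members (points) of each of 15 miRNA lists, with the number tested in brackets; black bars are medians, the dotted line is the median of all 359, vertical scatter is arbitrary, and red points passed. The lymphoid list stands at -2.77, all 10 points of the miR-17/92 list are below 0, and the Dlk1-Dio3 points are centred at 0.39.

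miR-33-5p and miR-375-3p were listed by the study for this comparison, together with miR-142-5p, on these same libraries, so they are not independent evidence of a direction. miR-33-5p represses the cholesterol exporter Abca1. It was at 1.19 and 3.41 cpm in MS_A and at 7.72 and 8.38 cpm in PLA_A, on 5 and 28 reads against 31 and 46. The PLA_A libraries were close together and above both MS_A libraries, and the log2 fold change was -1.63 with a standard error of 0.96 and an interval of -3.93 to 0.39, so it did not pass. It was between -2.46 and -1.11 with each library left out, and miR-33-5p was 2.26-fold and 7.07-fold higher in the placebo library of the pairs with more and with less miR-1-3p.

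miR-375-3p, known from pancreatic islets and some epithelia, had 2 and 2 reads in MS_A and 36 and 9 in PLA_A, at 0.474, 0.244, 8.97 and 1.64 cpm. The ratio of the pooled reads was 14.7-fold higher in PLA_A, with an exact 95% counting interval of 5.36 to 56.3 that takes no account of the spread between libraries. It did not pass. When limma-voom was given the 4 libraries at 34 days alone, miR-33-5p and miR-375-3p passed the unadjusted thresholds, as did miR-142-5p. Of these 3 named miRNAs, miR-142-5p alone passed with limma-voom on all 10 libraries. For miR-375-3p both PLA_A libraries were above both MS_A libraries, and most of its reads were in PLA_A replicate 1.

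Among the miRNAs whose arms did not overlap, 2 more were among the 10 lowest besides those already described. miR-141-3p, of the epithelial miR-200 family, was at 5.22 and 4.88 cpm in MS_A and at 26.6 and 7.66 cpm in PLA_A, a log2 fold change of -1.69 with a standard error of 1.35, and of -0.57 without PLA_A replicate 1. miR-144-3p, an erythroid miRNA, was at 0.712 and 8.78 cpm in MS_A and at 11.7 and 14.0 cpm in PLA_A, a log2 fold change of -1.34 with a standard error of 1.18, and of -3.62 without MS_A replicate 2 and -0.49 without MS_A replicate 1. Neither passed, and miR-144-3p was at 3 reads in MS_A replicate 1 alone.

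The 10 highest of the miRNAs without overlap were all at or under 5 cpm, where a difference rests on few reads. Besides miR-495, those with more than 3 reads in at least 1 library of each arm were let-7c-1-3p, miR-329-5p, miR-212-5p, miR-299a-3p, miR-501-3p, miR-1193-3p and miR-539-3p, and their log2 fold changes were 1.27, 1.26, 1.04, 1.00, 0.94, 0.91 and 0.80. None of these 7 passed. let-7c-1-3p was at 2.37 and 2.44 cpm in MS_A and 1.25 and 0.365 cpm in PLA_A, with an interval of -0.05 to 3.33. miR-409a-5p had 2 and 14 reads in MS_A and 1 and 0 in PLA_A, a ratio of 12.2 with a counting interval of 1.90 to 513, and miR-653-3p had 4 and 14 against 2 and 3, a ratio of 2.75 with an interval of 0.985 to 9.49.

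The other tissue lists held no miRNA that passed. Of the 5 skeletal muscle miRNAs 3 were above 0, with a median of 0.03, and all overlapped between the arms. The intervals were wide where replicates stood apart: the 95% interval of the log2 fold change was -2.97 to 3.96 for miR-1-3p and -3.91 to 3.47 for miR-206-3p, beside -1.18 to 0.95 for miR-133b-3p. The slow-twitch fibre miRNAs miR-499-5p and miR-208b-3p, which are encoded in myosin heavy chain genes, were at 156 and 55.9 cpm in MS_A and 335 and 79.8 cpm in PLA_A, and at 247 and 83.1 cpm in MS_A and 690 and 61.8 cpm in PLA_A. Their median was -1.08 and turned to 0.89 without PLA_A replicate 1, the library in which they were highest. The 2 cartilage miRNAs, miR-140-5p and miR-140-3p, were at -0.71 and -0.36, and their median of -0.54 turned to 0.24 without the same library.

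The 6 fibroblast and matrix miRNAs had a median of -0.24, which was -0.64 without MS_A replicate 1 and -0.07 without MS_A replicate 2. miR-29b-3p, a repressor of collagen and other matrix genes, was the lowest of them at -1.15 with a standard error of 0.65, with 31.5 ± 4.01 cpm in MS_A and 70.4 ± 6.92 cpm in PLA_A (SD, n = 2 each); it is named after its values were seen. Its relatives miR-29a-3p and miR-29c-3p were at -0.42 and -0.28, so that the fitted difference was unequal within this family. miR-199a-3p and miR-199a-5p were at -0.20 and 0.05.

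In the list of 8 myeloid and inflammation-induced miRNAs, 4 were above 0 with a median of 0.04. miR-21-5p was at -0.54, miR-146a-5p, a brake on NF-kB signalling, at -0.21, miR-146b-5p at 0.66 and the neutrophil and monocyte miRNA miR-223-3p at 0.29. For miR-223-3p the MS_A libraries, at 57.4 and 51.6 cpm, were both above the PLA_A libraries, at 43.3 and 45.9 cpm, a gap that was small beside the interval of -0.96 to 1.54 for its log2 fold change. Inflammation-induced miRNAs thus showed no common direction. Of the 3 tested erythroid miRNAs, miR-451-5p was at 0.22 and miR-144-5p at -0.33, and the median was -0.33. miR-486 was not analysed here.

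The 10 tested epithelial miRNAs had a median of -0.17 with 4 above 0; miR-203a-3p and miR-205, the keratinocyte members, were at -0.29 and -0.05, and miR-182 and miR-183-5p at 0.50 and 0.56. The 4 smooth muscle miRNAs had a median of -0.11, which was -0.47 without PLA_A replicate 1 and 0.45 without PLA_A replicate 2, with miR-143-3p at -0.17, miR-143-5p at -0.12, miR-145-5p at 0.49 and miR-145-3p at -0.10. The 4 endothelial miRNAs lay within -0.11 and 0.09, namely miR-126a-3p at -0.11, miR-126a-5p at -0.10, miR-221-3p at 0.09 and miR-222-3p at -0.08. The 5 adipose and lipid miRNAs had a median of 0.06, with miR-378a-3p at 0.06, miR-378a-5p at 0.32, miR-365-3p at 0.39 and miR-193-3p at 0.03, and miR-33-5p as their only member below 0. The 4 miRNAs of the H19 and Igf2 genes had a median of 0.12, which was -0.31 without MS_A replicate 1, -0.26 without PLA_A replicate 1 and 0.97 without PLA_A replicate 2, with miR-483-3p at 0.44, miR-483-5p at 0.13, miR-675-3p at -0.56 and miR-675-5p at 0.11. With a library left out, the medians of the skeletal muscle, myeloid, erythroid, epithelial, endothelial, adipose and let-7 lists also lay on both sides of 0, and none of these lists had a direction that held in every fit.

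Only few miRNAs could be called alike in the arms. The 95% interval of the difference lay within 2-fold for 7 of the 359 (1.95%), of which 4 were of the let-7 family, abundant miRNAs that are widely expressed in differentiated tissue. let-7a-5p was at 5042 and 5782 cpm in MS_A and 4889 and 5664 cpm in PLA_A, with a log2 fold change of 0.04 and an interval of -0.82 to 0.89. The others of the 4 were let-7c-5p at 0.07, let-7e-5p at -0.02 and let-7i-5p at -0.03. The interval of let-7f-5p, at -0.08, reached beyond 2-fold, from -1.09 to 0.93. Over the 8 tested let-7 miRNAs the median was -0.01 and the fitted values lay between -0.13 and 0.19. For each of the other miRNAs the interval reached beyond 2-fold in at least 1 direction.

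To ask whether the difference between the arms was particular to 34 days, it was set against the difference at 1 h with the interaction contrast of the same fit. Of the 359 miRNAs, 12 (3.34%) passed the same thresholds, all in the direction of a lower ratio of stimulation to placebo at 34 days, and none had an adjusted p under 0.05 (smallest edgeR adjusted p = 0.993; 12 at an unadjusted p under 0.05; none with limma-voom or DESeq2). Of the 7 miRNAs that passed at 34 days, 3 were among the 12. miR-142-5p was at 257 and 303 cpm in MS_E and 372 and 240 cpm in PLA_E, so the arms overlapped at 1 h, and the difference at 34 days minus that at 1 h was -3.58 on the log2 scale with a standard error of 1.24. For miR-342-3p and miR-363-3p it was -4.10 and -4.16 with standard errors of 1.68 and 1.35. Without PLA_A replicate 1 these values were -1.13, -0.29 and -2.73, and none of the 3 passed. For miR-142-3p, miR-150-3p, miR-342-5p and miR-495 the interaction did not pass, so a difference between the times was not shown for them.

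For 9 of the 12 miRNAs PLA_A replicate 1 was the highest library at 34 days, beside 103 of the 359. The contrast itself favours miRNAs that are high in an MS_E and in a PLA_A library, so this count is a description. For some miRNAs the interaction also rested on an early library. miR-375-3p was at 81.2 and 0.156 cpm in MS_E and 3.89 and 2.76 cpm in PLA_E. miR-141-3p was at 220 and 3.43 cpm in MS_E and 5.23 and 3.03 cpm in PLA_E. These epithelial miRNAs were thus high in MS_E replicate 1. Their interaction values of -6.44 and -6.31 became -0.08 and -1.32 without that library.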

How the data were processed

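Small RNA of 10 rat libraries was sequenced, and groups were taken from the labels, with group names after the paper. The authors trimmed adapters, discarded reads shorter than 18 bases, aligned to rn4 and miRBase 18 and counted with miRDeep2, and deposited whole-number read counts per library without normalization. The submitters' processing notes name CASAVA 1.8 and Bowtie. A mature miRNA with several precursors can have a count at each (35 miRNAs are listed more than once), and the largest was taken. A series-wide table was not used, since its 20 value columns have names that fit no label.

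edgeR 4.0.16 in R 4.3.3 was run on the deposited counts, with TMM factors, the 5 group means and all 10 libraries in 1 quasi-likelihood fit, after the filter of 1 cpm in 5 libraries that the study used, and with Benjamini-Hochberg adjustment over the 359 tested. Fold changes have a prior count of 2. A miRNA passed with an unadjusted p under 0.05 and over 2-fold change, as in the study, which used limma-voom. With 2 libraries against 2 the smallest exact two-sided permutation p is 0.333, so none is given for single miRNAs, and 95% intervals of the fit are given instead. The steps were tested on simulated data. limma 3.58.1, DESeq2 1.42.0, other scalings, filters and libraries, and a term for the library classes that miR-1-3p separates were alternatives. DESeq2 without each library, the interaction without each library and a crossed pairing were added after seeing the data.

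Named miRNAs were those that passed, the 10 highest and 10 lowest without overlap between arms, 3 listed by the study for this comparison, up to 4 abundant members of each list, and opposite arms of those that passed. Others, such as miR-92b-3p, which shares a printed seed, miR-29b-3p and miR-136-3p, were chosen after their values were seen. Members, lists and rules were chosen with earlier results of these data known. Sequences and positions come from RefSeq (GRCr8), not from the build of the authors. Intervals and limits on read numbers leave out any error but that of counting, because PCR copies of a molecule are not told apart.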

Additional observations from a re-analysis of the deposited data

Results flagged for a closer look

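For 7 of the named miRNAs the difference between the arms at 34 days differed from that at 1 h by the interaction contrast of edgeR (thresholds as above on the unadjusted p, with no adjusted p below 0.993). The values, as log2 of the ratio of stimulation to placebo at 34 days over that at 1 h, were -3.58 for miR-142-5p, -4.10 for miR-342-3p, -4.16 for miR-363-3p, -6.44 for miR-375-3p, -6.31 for miR-141-3p, -1.88 for miR-19b-3p and -1.71 for miR-675-3p. Without MS_E replicate 1 the values of miR-375-3p, miR-141-3p and miR-363-3p were -0.08, -1.32 and -2.37 and none passed, and without PLA_A replicate 1 those of miR-142-5p and miR-342-3p were -1.13 and -0.29. For miR-19b-3p, a member of the miR-17/92 cluster, and for miR-675-3p, which is cut from the H19 transcript, the values with each library left out were between -2.61 and -1.42 and between -1.91 and -1.48. With 1 of the 8 libraries left out, miR-19b-3p passed in 1 of 8 fits, miR-375-3p in 2, miR-342-3p in 3, miR-675-3p in 4, miR-142-5p and miR-363-3p in 6 each and miR-141-3p in 7. miR-675-3p was at 32.4 and 43.6 cpm in MS_E, 19.2 and 14.6 cpm in PLA_E, 8.78 and 10.8 cpm in MS_A and 16.4 and 12.9 cpm in PLA_A, with the arms apart at both times and in opposite order.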

How the results depend on the processing

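The count of 7 miRNAs became 1 with limma-voom on all 10 libraries, 2 with a mean of at least 100 counts (184 miRNAs tested), 4 with the replicate block, and 14 with the library class term. It was 20 with the crossed pairing on only the 4 libraries, where edgeR without a pairing gave 8. It was 2 to 14 with a library left out in edgeR (14 without PLA_A replicate 2, 2 without PLA_A replicate 1) and 5 to 11 in DESeq2 (11 without PLA_A replicate 2 or MS_A replicate 2), where the lone library of an arm is assumed to vary like the other groups. The other settings gave 5 to 9. At an adjusted p under 0.05, 1 miRNA passed in edgeR and 4 in DESeq2 without PLA_A replicate 2, and 3 in the interaction without MS_E replicate 2. The 12 miRNAs of the interaction became 4 with limma-voom, 7 with library size only, 7 with at least 100 counts, 7 with the replicate block and 3 to 17 with a library left out: 3 without MS_E replicate 1, 4 without PLA_E replicate 2, MS_A replicate 1 or PLA_A replicate 1. Deviations of same-numbered libraries from their group means correlated at -0.544 between MS_A and PLA_A. The correlation was 0.545 between MS_E and MS_A and 0.587 between PLA_E and PLA_A. Its sign was positive where same-numbered libraries were alike in miR-1-3p and negative where they were not. The correlations therefore cannot tell whether replicate numbers pair the libraries. The crossed pairing, MS_A replicate 1 with PLA_A replicate 2, gave 4 at an adjusted p under 0.05.

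miR-142-5p passed in 18 of 20 alternatives and failed in the 2 without PLA_A replicate 1. miR-142-3p passed in 15 of 20, miR-363-3p in 14 of 19, miR-150-3p in 13 of 19, miR-342-5p in 10 of 19, miR-342-3p in 8 of 20 and miR-495 in 3 of 19. miR-342-3p was between -3.61 and 1.14 with a library left out in edgeR, and reversed without PLA_A replicate 1, to 1.14 in edgeR and 1.17 in DESeq2. miR-33-5p and miR-375-3p each passed in 4 of 19. At these depths miRNAs near 1 cpm rest on a few reads. With 2 libraries an arm, 1 library can set a mean, and the cause of these changes was not tested.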
